A study of Mus musculus with 6 samples.

Results

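Of 18323 protein-coding genes tested on mouse chromosomes 1 to 19, 2245 (12.3%) had no ATAC-seq peak within 5 kb of the 5′ end in any of 6 libraries. These genes were chosen by the measured peaks themselves, so their lack of promoter peaks describes the choice and was not tested. They are called closed genes here, which says only that no peak was listed near their start. Olfactory receptor (Olfr), vomeronasal receptor (Vmn), keratin (Krt and Krtap), protocadherin (Pcdh), Hox and Zfp genes were left out by name, 1898 in all. At the other end of the scale, 15332 genes (83.7%) had a promoter peak in all 6 libraries, and 746 had one in 1 to 5 libraries.

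ATAC-seq uses the Tn5 transposase to cut accessible chromatin and add sequencing adapters. The libraries were made from male mice at postnatal day (Pnd) 5, from testis cells enriched in spermatogonia, the mitotic germ cells. There were 3 libraries of Sirt7-/- mice (S7KO) and 3 of wild-type mice (WT), named here by the replicate numbers 1, 2 and 4 of their titles, which differ from the library names in the descriptions for 2 libraries of each genotype. SIRT7 is a deacetylase with a proposed target on lysine 36 of histone H3, and the comparison asked whether its loss altered accessibility. Each library was made from 50000 cells, and no treatment is named in the labels. Per the study most of the cells carried PLZF, a marker of undifferentiated spermatogonia, so other testis cells can be present. The study calls its ATAC-seq libraries biological replicates. How many animals went into each is not given in the labels, and tests measure the spread between these libraries.

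All 20 spermatogonia markers and all 12 housekeeping genes examined had a promoter peak in every library, and so did all 13 Sertoli cell markers. Markers of other testis cells were also mostly marked by peaks, with 8 to 9 of 10 for Leydig cells, 11 to 12 of 12 for peritubular and stromal cells and 11 to 12 of 12 for endothelium per library. For myeloid cells 9 of 15 had a promoter peak in every library. Fewer cells of a type and less accessible chromatin per cell cannot be told apart in such bulk samples. Between 105754 and 133695 peaks were listed per library, the fewest in WT replicate 2, and depth was not given in the lists.

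Promoters differ in sequence as well as in activity. Most broadly used mouse genes start in CpG islands, stretches rich in the dinucleotide CG, which are commonly nucleosome-poor even where the gene is silent. Genes used by 1 or a few differentiated tissues often start in CpG-poor sequence, some with a TATA box, and such promoters usually become accessible only where the gene is used. Many of these genes sit in tandem arrays made by gene duplication.

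The promoters below show this difference in sequence. The first 5 belong to closed genes. They are the members farthest from any peak, with a sequence, in 5 of the tissue lists with most closed genes (myeloid cells tied with the liver and epidermis lists and are not shown). Gfra1, the co-receptor for GDNF on spermatogonial stem cells, had a promoter peak in all 6 libraries and stands for comparison. Each run holds 250 bases before and 50 after a RefSeq start (GRCm38.p6), on the coding strand, with CG and TATAAA in capitals. Ctsq, a placental cathepsin, starts at chr13:61040548-61040847 (minus strand). Crisp1, a secreted protein of the epididymis, lies at chr17:40319158-40319457 (minus strand), and Prol1, a protein of saliva and tears, at chr5:88317062-88317361 (plus strand). Serpina1a, the liver-made inhibitor of elastase, lies at chr12:103863570-103863869 (minus strand), and Sprr1b, an envelope protein of the epidermis, at chr3:92438730-92439029 (minus strand). The run of Gfra1 is chr19:58455349-58455648 (minus strand).
Ctsq: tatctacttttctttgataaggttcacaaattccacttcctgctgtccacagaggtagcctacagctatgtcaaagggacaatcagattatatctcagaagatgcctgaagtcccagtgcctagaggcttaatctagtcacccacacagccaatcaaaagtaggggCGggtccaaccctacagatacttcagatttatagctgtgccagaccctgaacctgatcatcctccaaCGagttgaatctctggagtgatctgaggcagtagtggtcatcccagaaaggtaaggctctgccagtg
Crisp1: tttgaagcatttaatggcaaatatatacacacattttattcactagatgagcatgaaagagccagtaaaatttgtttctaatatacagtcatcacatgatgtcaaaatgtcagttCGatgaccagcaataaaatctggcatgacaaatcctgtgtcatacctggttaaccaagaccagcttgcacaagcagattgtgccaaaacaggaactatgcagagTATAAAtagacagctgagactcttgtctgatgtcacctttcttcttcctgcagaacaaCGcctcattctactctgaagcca
Prol1: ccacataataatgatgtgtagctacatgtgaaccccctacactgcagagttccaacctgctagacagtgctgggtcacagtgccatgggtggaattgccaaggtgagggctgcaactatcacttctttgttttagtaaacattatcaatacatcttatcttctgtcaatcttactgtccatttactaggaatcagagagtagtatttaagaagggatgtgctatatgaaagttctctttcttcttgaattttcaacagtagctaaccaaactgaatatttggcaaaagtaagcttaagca
Serpina1a: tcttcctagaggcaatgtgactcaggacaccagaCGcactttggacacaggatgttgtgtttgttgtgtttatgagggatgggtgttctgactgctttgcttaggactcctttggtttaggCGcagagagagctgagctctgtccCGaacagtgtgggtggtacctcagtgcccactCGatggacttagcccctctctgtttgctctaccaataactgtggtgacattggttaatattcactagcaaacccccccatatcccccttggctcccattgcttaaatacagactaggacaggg
Sprr1b: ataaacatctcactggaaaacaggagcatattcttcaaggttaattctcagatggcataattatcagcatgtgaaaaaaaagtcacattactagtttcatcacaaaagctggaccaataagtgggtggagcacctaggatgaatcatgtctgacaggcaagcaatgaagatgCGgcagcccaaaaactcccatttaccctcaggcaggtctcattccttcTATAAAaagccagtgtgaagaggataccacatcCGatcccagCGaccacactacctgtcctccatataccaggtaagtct
Gfra1: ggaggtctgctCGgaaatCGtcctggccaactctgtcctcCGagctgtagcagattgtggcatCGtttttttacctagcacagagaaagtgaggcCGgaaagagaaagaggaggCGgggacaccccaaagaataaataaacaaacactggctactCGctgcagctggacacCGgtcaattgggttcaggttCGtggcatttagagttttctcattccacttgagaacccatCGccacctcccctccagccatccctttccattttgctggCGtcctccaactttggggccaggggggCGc

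The runs of the 5 closed genes held 0 to 4 CpGs, and that of Gfra1 held 12. A TATAAA stood in the 50 bases before the start in Crisp1 and Sprr1b. The starts shown for Sprr1b and Gfra1 lie 38 and 548 bases from the 5′ end used for the distances. The 5′ end of Ctsq was 142790 bp from the nearest peak of any library, that of Serpina1a 120895 bp, that of Crisp1 99571 bp, that of Prol1 53473 bp and that of Sprr1b 9592 bp. Crisp1 had 1 near-identical promoter elsewhere in the genome.

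Closed promoters as a whole were poor in CpG. A RefSeq promoter sequence was at hand for 1766 of the 2245 closed genes (78.7%) and for 12286 of the 16078 other genes (76.4%). The closed promoters held a median of 2 CpGs per 300 bases (quartiles 1 and 4), and those of the other genes a median of 18 (quartiles 9 and 27). Median GC content was 46.7% in closed promoters and 60.0% in the others. Of promoters without any CpG, 270 of 394 (68.5%) belonged to closed genes. This share fell in every step of CpG number, to 11.7% at 5 to 9 CpGs and to 1.33% (78 of 5874) at 20 or more. Among promoters without a near-identical copy the shares were lower in every step, 59.9% without CpG and 0.840% at 20 or more CpGs.

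**Figure D1:**
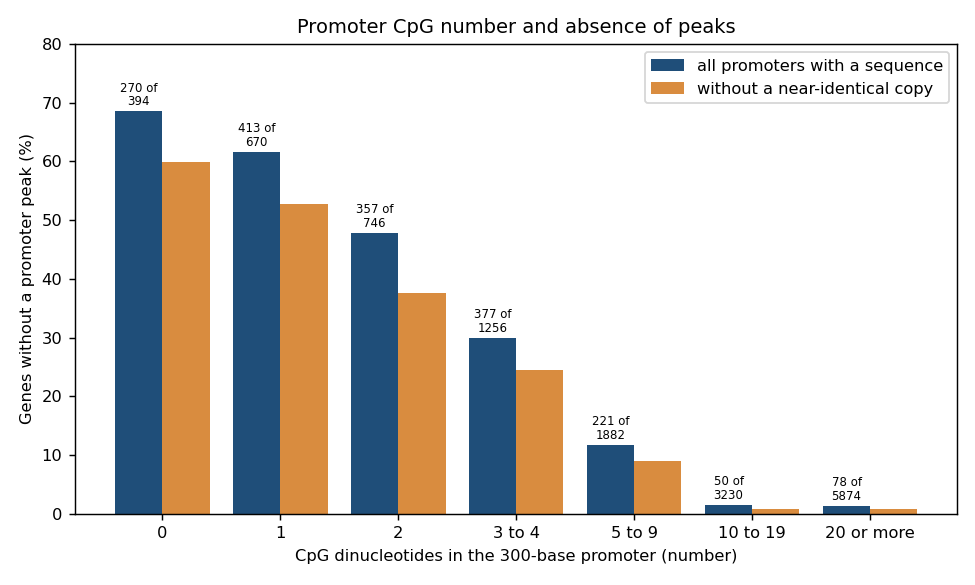
Share of genes without a promoter peak in any library (y axis, %) by the number of CpGs in the 300-base promoter (x axis), for all promoters with a sequence (blue, with counts) and for those without a near-identical copy (orange). The share falls from 68.5% of promoters with 0 CpGs to 1.33% of those with 20 or more.

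The sequence TATAAA, searched on both strands in the 50 bases before the start, occurred on the coding strand in 181 closed promoters (10.2%), against 2.57% of the other promoters and 3.54% of all. On the opposite strand it occurred in 2.43% and 0.594%. A match of these letters is a description and not a shown binding site.

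Repeats in the genome bear on what a missing peak means, since the authors kept only uniquely mapped reads. A promoter with 95% identity over at least 83% of its length to the promoter of another gene was counted as having a near-identical copy. This held for 550 closed promoters (31.1%) and for 51 of the others (0.415%). Of all 601 promoters with such a copy 91.5% were closed, and of the 13451 without one 9.04%. Reads from such promoters can fail to map to 1 place, and whether this emptied them was not tested. Per the study the mice were of another inbred strain than C57BL/6J, that of the reference genome, and gene arrays can differ in copy number between strains. This too was not tested. Counts of families with closed genes are therefore given below also for promoters with a sequence and without a copy, for most families.

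A further set of closed genes stood apart from the rest, by a rule made after the values were seen. In 13 stretches without any peak in any library, each over 20 kb, lay 2 or more promoters with over 10 CpGs and no near-identical copy. They held 130 closed genes (5.79%), among them genes used in nearly all cells. A stretch of 248 kb on chromosome 19 (4013428 to 4261165) held 19 closed genes, including Ppp1ca, a catalytic subunit of protein phosphatase 1, and Pold4, a subunit of DNA polymerase delta. A stretch of 275 kb on chromosome 16 (18222905 to 18498004) held 8, including Dgcr8, which processes microRNA precursors. A stretch of 339 kb on chromosome 11 (87988029 to 88326797) held 6, among them the splicing factor gene Srsf1. Men1 and the splicing factor gene Sf1 lay in a stretch of 635 kb on chromosome 19 (6182248 to 6817105).

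The distances of such genes were alike in all libraries. The 5′ end of Srsf1 lay 58471, 58539 and 58490 bp from the nearest peak in S7KO replicates 1, 2 and 4, and 58531, 58503 and 58517 bp in WT. Its promoter held 22 CpGs. That of Dgcr8, with 43 CpGs, lay 66347 to 68675 bp from the nearest peak. Of the 70 closed promoters with over 10 CpGs and no copy, 46 lay in these stretches. The lists also held 8 to 11 peaks per library on 5 scaffolds that by name are not part of the primary GRCm38 assembly, so the authors' reference held more than the chromosomes. Whether reads of the stretches were lost to a second copy of the sequence among such scaffolds was not tested. For these genes only the absence of a listed peak is reported.

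Annotated starts bear on the count too. Of the closed genes, 186 had another RefSeq start over 5 kb into the gene, and 92 of these had a peak within 1 kb of it, 88 of them in all 6 libraries. These genes lacked a peak at the outermost start but not at an inner one. Iqgap1, a scaffold protein of the cytoskeleton, had its nearest peaks 8485 to 11770 bp from the outermost start, and a peak in all 6 libraries at a start 12218 bp further in. For Gpx4, a glutathione peroxidase that acts on lipids and is abundant in testis, the inner start with a peak lay 6845 bp in. For Adh5, an alcohol dehydrogenase that acts on formaldehyde adducts, it lay 5893 bp in, and for the chromodomain gene Cdyl 81584 bp in. Snrpn, an imprinted splicing protein gene, had an inner start with a peak 444978 bp in.

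Leaving out promoters without a sequence or with a copy, the peak-free stretches above and genes with an inner start near a peak, 1097 closed genes stayed, 831 of them with a gene name in place of a number or clone. Their promoters held a median of 2 CpGs, and their median distance to the nearest peak was 19097 bp. The features described next are those of all 2245 genes unless stated.

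Most members had no peak anywhere near. The distance from the 5′ end to the nearest peak of any library had a median of 29399 bp and quartiles of 10309 and 102183 bp. It was over 50 kb for 868 genes (38.7%) and over 100 kb for 567. Near the threshold, 547 genes (24.4%) lay 5 to 10 kb from a peak. The nearest members were Ppt2 at 5002 bp, Smim23 at 5005 bp and 4930519G04Rik at 5007 bp. The genes just within 5 kb were Tmem92 at 5000 bp, Khdc1a at 4998 bp and Gm13283 at 4996 bp, each with the peak in 1 library only. Closed genes were also short, with a median length of 9761 bp against 21989 bp in the other genes.

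Predicted genes made up a large part of the set. Of the closed genes, 663 (29.5%) were named only by Gm, Rik or LOC, against 3.92% of the other genes, and 51.3% of such genes were closed. Among genes with a gene name, 1582 of 17030 (9.29%) were closed. The families examined, 48 with the Gm and Rik names counted as 2 of them, held 670 of these (42.4%).

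Families of chemical sense receptors outside the names left out were often closed. The bitter taste receptors (Tas2r), G protein-coupled receptors of the tongue, had 27 of 35 closed against the background of 12.3%, and 23 of 31 among promoters without a copy. The Mas-related receptors (Mrgpr) of itch and pain neurons had 14 of 20 (10 of 15 without a copy), the formyl peptide receptors (Fpr) of phagocytes and the vomeronasal organ 6 of 7 (6 of 7), and the trace amine-associated receptors (Taar) of the nose 4 of 15 (4 of 11). Tas2r114 on chromosome 6 lay 62288 to 62453 bp from a peak in 4 libraries, 255174 bp in S7KO replicate 1 and 255315 bp in WT replicate 2. Mrgprb1 on chromosome 7 was 288542 to 292966 bp from the nearest peak.

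Most major urinary proteins, secretoglobins and alpha-defensins were closed, and beta-defensins in part. All 28 alpha-defensins (Defa), peptides of the Paneth cells of the gut, were closed, but only 2 of the 16 with a sequence had a promoter without a copy. Of the beta-defensins (Defb) of epithelia and epididymis 23 of 42 were closed, 16 of 28 without a copy, and 14 had a promoter peak in all 6 libraries. The major urinary proteins (Mup), liver lipocalins that carry pheromones, had 20 of 22 closed and 5 of 6 without a copy. Secretoglobins (Scgb), small proteins of airway, saliva and tears, had 36 of 40 and 16 of 18. The olfactomedin, lipocalin and odorant-binding proteins had 9 of 22 closed and 8 of 20 without a copy, and 10 had a promoter peak in all 6 libraries. The exocrine gland-secreted peptides (Esp), a family singled out after its values were seen, had 13 of 15. Scgb1b12 lay 1125033 to 1125131 bp from the nearest peak in the 6 libraries, and Mup10 648677 to 649030 bp.

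Enzymes that handle drugs, steroids and other small molecules in the liver, gut and kidney formed the next group. Of the carboxylesterases (Ces) 18 of 19 were closed, all on chromosome 8, and 14 of 15 without a copy. Of the UDP-glucuronosyltransferases (Ugt) 17 of 21 were closed, and 13 of 17 without a copy. The cytochromes P450 of families 2, 3 and 4 had 50 of 76, and 28 of 49 without a copy. Sulfotransferases (Sult) had 11 of 21 and 7 of 15. Cyp2c67 lay 492611 bp from the nearest peak in WT replicate 4 and 528561 to 528610 bp in the other libraries. A body peak in any library was held by 8 of 18 closed carboxylesterases, 8 of 17 closed glucuronosyltransferases and 6 of 44 closed P450 genes with a body beyond 5 kb, where all closed genes with a body reached 30.6%. Of the 8 glucuronosyltransferases 6 were Ugt1a genes, which overlap on chromosome 1, so that the same regions count for several of them. The difference between families was not tested.

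Proteases, protease inhibitors and milk proteins were closed in part. The clade A serpins (Serpina), mostly made by liver, had 14 of 23 closed (6 of 14 without a copy), and the clade B serpins (Serpinb) of epithelia and leukocytes 16 of 28 (10 of 17). Kallikreins (Klk) had 12 of 26 (9 of 21), pancreatic digestive enzymes 18 of 37 (10 of 27) and caseins with other milk and whey acidic proteins 9 of 26 (4 of 20). The late cornified envelope and small proline-rich proteins (Lce and Sprr) of the skin barrier had 23 of 35 (19 of 31). Complement and coagulation factors, plasma proteins made mostly by liver, had 15 of 59 (25.4%), and 13 of 49 without a copy. Apolipoproteins A to H had 1 of 18, but 4 with a distance of 3 kb, with a −log10 q of at least 3 or with equal numbers of peaks. The apolipoprotein L genes, a family singled out after its values were seen, had 8 of 12, and 2 of 5 without a copy.

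Placental families were among the most closed. In the prolactin family (Prl), hormones mostly of the placenta, 24 of 25 genes were closed, and 15 of 16 among promoters without a copy. Placental cathepsins and the PSG and CEACAM proteins had 29 of 37, and 22 of 28 without a copy. Prl2b1 on chromosome 13 lay 178551 to 178685 bp from the nearest peak in all 6 libraries. Psg26 on chromosome 7 lay 218824 to 230040 bp away.

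Immune families were mixed. Of the killer cell lectin-like receptors (Klr) 17 of 27 were closed, and 12 of 19 without a copy. All 11 Ly49 receptors (Klra) of natural killer cells were closed, 9 of them without a promoter copy, a subset singled out after the values were seen. The paired receptors of the CD300, LILR, PIR and SIGLEC groups had 17 of 31 (7 of 16 without a copy), type I interferons 12 of 23 (10 of 19), and butyrophilins with SKINT proteins 10 of 19 (10 of 18). GIMAP, GBP and SLFN genes, counted together with genes named Ifi, had 19 of 50 (10 of 33). Of these closed genes, 10 lay on chromosome 1, where Ifi213, Ifi209, Ifi214 and Ifi211 stand. Chemokines had 12 of 38 (4 of 23). C-type lectins (Clec) had 11 of 33 (8 of 24), Ms4a genes 6 of 21 (6 of 18) and interleukins 7 of 37 (7 of 25). Klra8 lay 407843 to 451015 bp from the nearest peak. The closed interleukin genes lay nearer to peaks, Il1b 12430 to 12531 bp away and Il5 10708 to 13097 bp.

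Several closed families are known from germ cells and early embryos. The PRAME-like genes, multicopy genes of germ cells and early embryos, had 48 of 49 closed, 22 of them in a peak-free stretch of the kind described above. Among promoters without a copy 19 of 20 were closed, and only 5 of these 19 lay outside such a stretch. All 10 SPEER genes, named for glutamate-rich testis proteins, were closed, but 8 had a near-identical promoter. Obox homeobox genes of the oocyte and early embryo had 5 of 6 (2 of 2 without a copy) and the NLRP family 10 of 18 (6 of 13). The ADAM metalloproteinases, several of which act in sperm, had 15 of 34 (7 of 16). Testis-expressed and sperm cysteine-rich genes (Tex, Spata, Crisp, Prm, Tnp and Akap) had 14 of 70 (20%), and 9 of 56 without a copy.

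Other families had closed genes in a smaller share than the 12.3% of all tested genes. None of 73 ribosomal protein genes, none of 38 proteasome genes and none of 39 voltage-gated potassium and sodium channel genes was closed. Of the GABA, glycine and glutamate receptor subunits, the receptors of synapses, 1 of 42 was closed, Gabra6, with its nearest peak 5274 to 5898 bp away. Of the collagens 1 of 42 was closed, Col28a1, and of the solute carriers 27 of 362. Among genes grouped by name as sarcomeric 3 of 33 were closed, Myh2, Myh15 and the kinase gene Tnni3k, and among lens crystallins 1 of 16, Cryaa. The sarcomeric and crystallin shares rest on few genes, and the crystallin count ran from 0 at 10 kb to 3 at 3 kb.

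**Figure D2:**
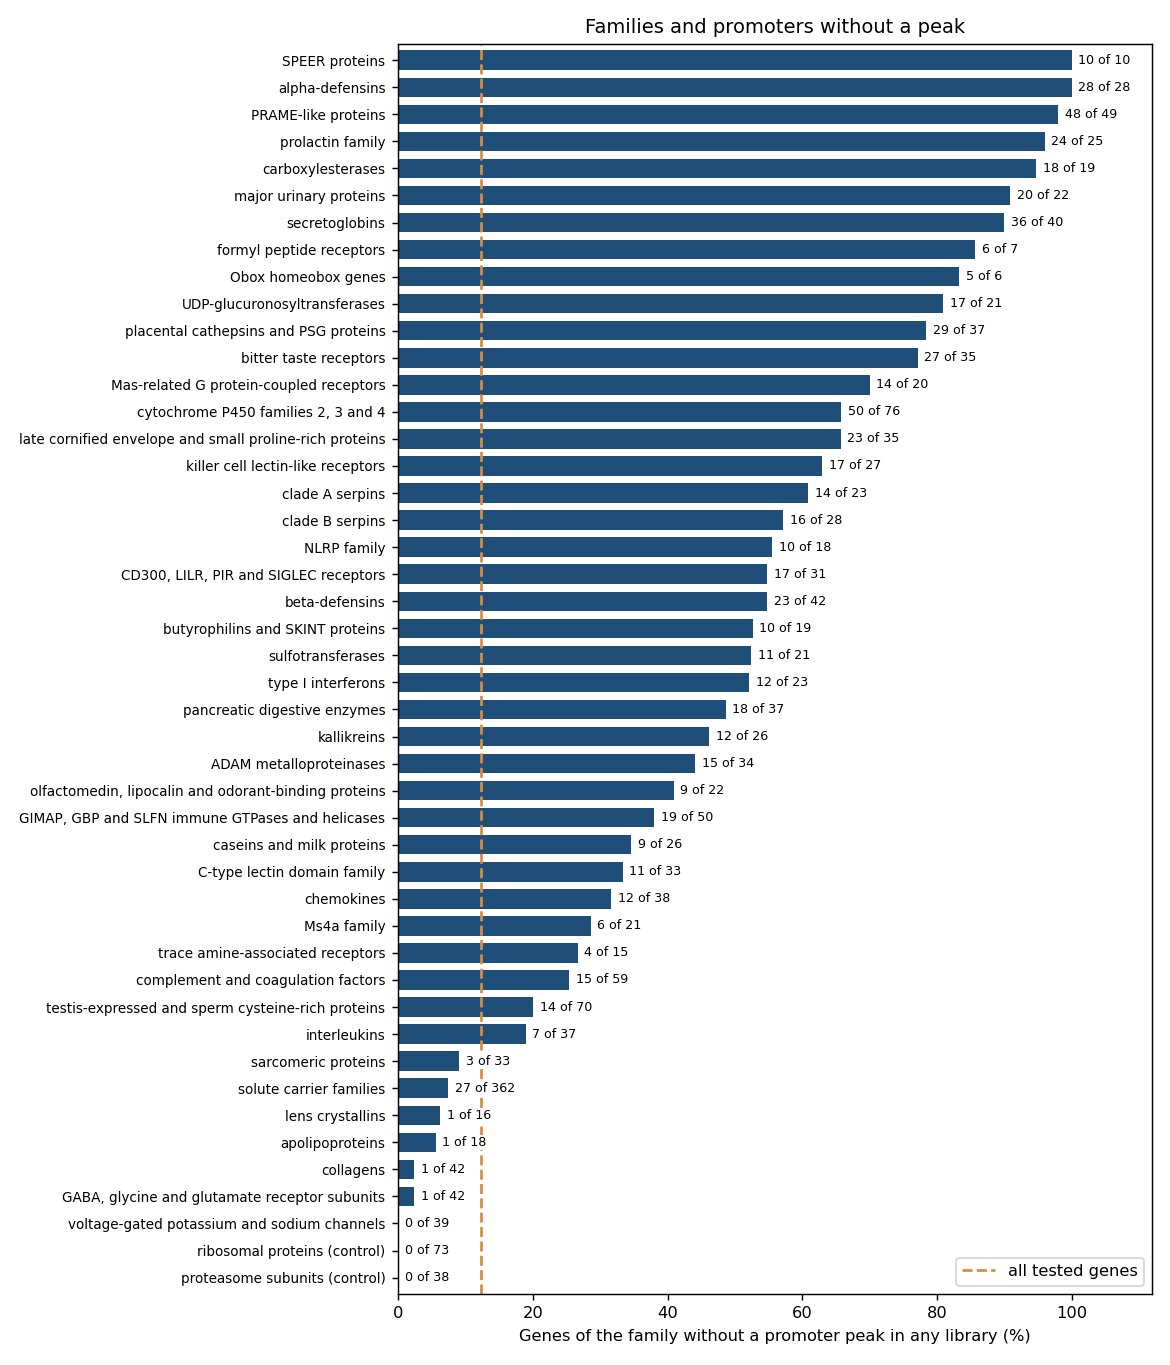
Share of each family's tested genes without a promoter peak in any of the 6 libraries (x axis, %), with counts beside the bars. The dashed line is the 12.3% of all tested genes. SPEER proteins and alpha-defensins stand at 100%, and ribosomal proteins, proteasome subunits and potassium and sodium channels at 0.

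Lists of known tissue markers gave the same data by organ. The 34 lists held 460 measured genes, of which 94 were closed, and 9 lists held none. Shares are to be read against the 12.3% of all tested genes, and those of lists with 1 to 3 closed genes rest on few genes. The placenta list had most, 11 of 13. By the smallest distance over the libraries they ran from Psg17 (6066 to 6235 bp) to Ctsq (142790 to 166817 bp). They included Prl3d1 and Prl3b1, the placental lactogens, at 34017 to 34084 bp and 30135 to 30269 bp, and the trophoblast gene Tpbpa, at 44129 bp in S7KO replicate 1 and 68029 to 68156 bp in the other libraries. None of the 9 with a body beyond 5 kb held a body peak. Synb, which fuses trophoblast cells, lay in a peak-free stretch on chromosome 14 of the kind described above.

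Male accessory tissues followed with 11 of 17, genes of the epididymis and seminal vesicle. The seminal vesicle secretion gene Svs2 lay 22656 to 23023 bp from the nearest peak, and the epididymal genes Crisp4 and Adam7 lay 67492 to 86923 bp and 11552 to 11639 bp away. Of the mammary, salivary and lacrimal genes 8 of 13 were closed. Among them Csn2, which encodes beta-casein, lay 36688 to 40316 bp from a peak and the lacrimal pheromone gene Esp1 36561 to 66688 bp.

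Epidermis had 6 of 12 closed, with the envelope genes Ivl and Sprr1b, the filaggrin gene Flg and the desmosomal cadherin genes Dsc1, Dsg1a and Dsg3. The nearest peak to Ivl was 7789 to 15236 bp away in 3 libraries, S7KO replicates 2 and 4 and WT replicate 4, and 65987 to 66100 bp away in the other 3. Liver hepatocytes had 6 of 19, and 11 of the 19 were open in all libraries. The closed ones were Alb (albumin), Cps1 of the urea cycle, Fgg (fibrinogen gamma), Apoh, Cyp2e1 and Serpina1a. The 5′ end of Alb lay 13494 to 19639 bp from the nearest peak, and that of Fgg 5027 to 6819 bp.

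Blood cells were divided. Mast cells and basophils had 5 of 10 closed, the proteases Mcpt1, Mcpt2, Mcpt8 and Cpa3 and the IgE receptor subunit Fcer1a, and myeloid cells 6 of 15, including the neutrophil genes S100a9 and Ly6g and the lysozyme gene Lyz2. The S100a9 start lay 12750 to 14028 bp from a peak, and that of Lyz2 6007 to 6078 bp. Natural killer cells had 4 of 11, Klrk1, Klra8, Ncr1 and Gzma. Of the erythroid and platelet genes 3 of 13 were closed, the adult beta-globin genes Hbb-bs and Hbb-bt and Slc4a1, the anion exchanger of red cells. B lymphocytes had 2 of 12, Blk and Igll1, and the T lymphocyte list included the closed co-stimulatory receptor gene Cd28.

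Of the remaining organs, lung epithelium had 4 of 11 closed, the surfactant genes Sftpb and Sftpd with Napsa and Lamp3. Sftpb lay in a peak-free stretch on chromosome 6 of the kind described above. The stomach had 3 of 10 (Gkn2, Muc5ac and Lipf), the pituitary, thyroid and adrenal list 4 of 17 (Tg, Cyp11b1, Cyp11b2 and Cyp21a1), the exocrine pancreas 3 of 15 (Amy2b, Prss1 and Prss2) and the retina 2 of 13 (Rpe65 and Crx). Kidney (Kap), intestine (Fabp2), islet and gut hormones (Iapp), lens (Cryaa), cartilage and bone (Bglap), skeletal muscle (Myh2) and Leydig cells (Hsd3b6) had 1 each. Hsd3b6, a steroid dehydrogenase of adult Leydig cells, lay 42454 to 76095 bp from the nearest peak. Neurons (0 of 17), heart muscle (0 of 12), glia (0 of 11), endothelium (0 of 12), adipose tissue (0 of 10) and the peritubular and stromal list (0 of 12) had none.

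**Figure D3:**
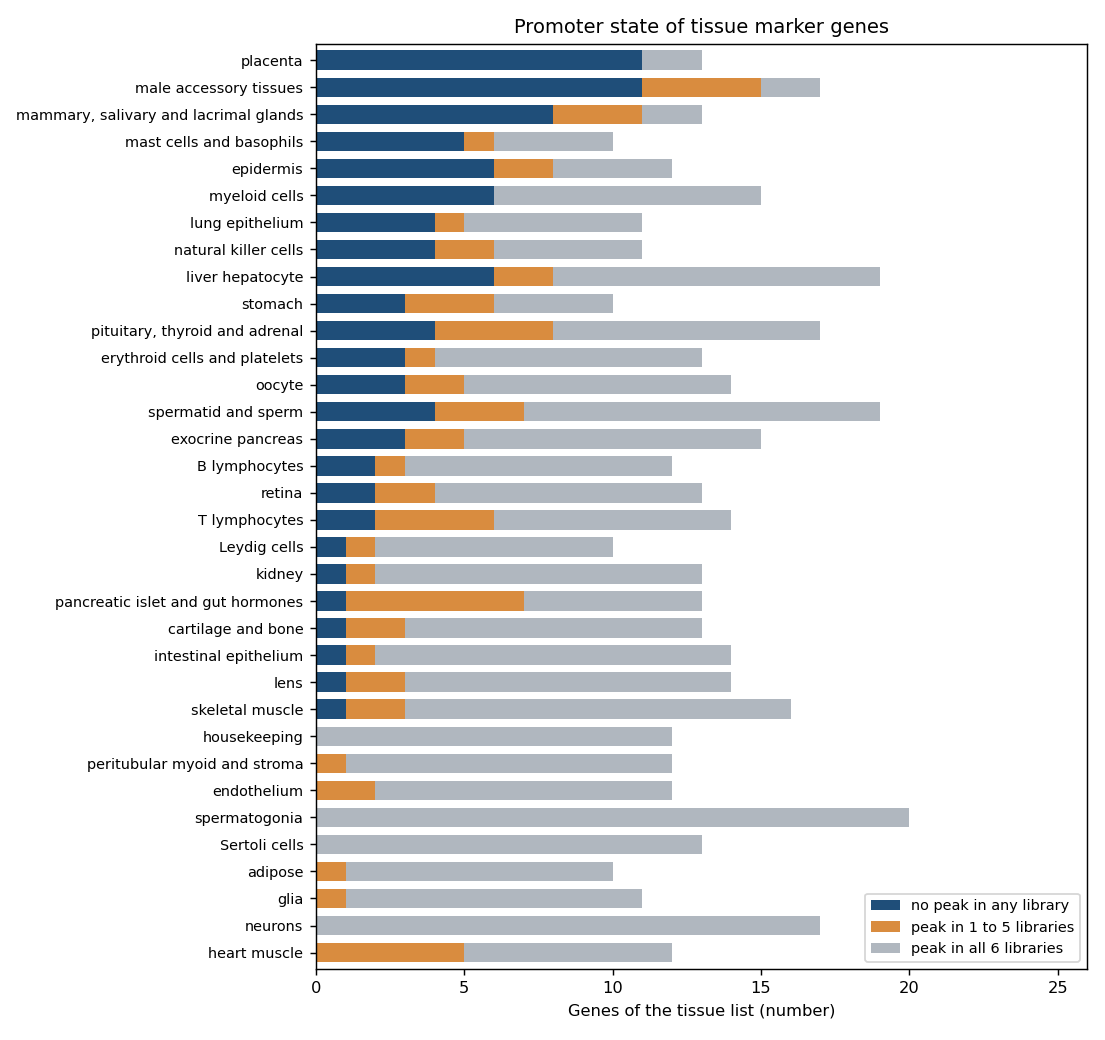
Number of genes in each tissue list (x axis) without a promoter peak in any library (blue), with one in 1 to 5 libraries (orange) and with one in all 6 (grey). Placenta (11 of 13) and male accessory tissues (11 of 17) hold most closed genes, and the spermatogonia, Sertoli cell, neuron and housekeeping lists are grey throughout.

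Of the 19 spermatid and sperm genes 4 (21.1%, against 12.3% of all tested genes) were closed, and 12 had a promoter peak in all libraries. The closed ones were the protamine genes Prm1 and Prm2, whose proteins replace histones in the sperm head, the acrosomal gene Acrv1 and the nuclear envelope gene Sun5. Prm1 lay 10071, 10051 and 10113 bp from the nearest peak in S7KO replicates 1, 2 and 4, and 10056, 10207 and 10113 bp in WT. For Prm2, its neighbour on chromosome 16, these distances were 5353, 5333 and 5395 bp in S7KO and 5338, 5489 and 5395 bp in WT. The libraries thus differed little in either gene. Acrv1 lay 11322 to 11485 bp away. Of the 14 oocyte genes 3 (21.4%) were closed, Oog1, Oosp2 and Zp1, which encodes a protein of the egg coat.

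Closed genes sat side by side. The next tested gene along the chromosome was closed after 59.2% of the closed genes, and after 5.70% of the other genes. Of all closed genes, 1144 (51.0%) lay in 110 runs of 5 or more neighbours, and 619 stood alone. The longest run held 74 genes on chromosome 14 (3029918 to 7658936), nearly all predicted genes. It was followed by 39 genes on the same chromosome (41151456 to 43819639), where Mbl1 and Sftpd stand among predicted genes. Next came 35 secretoglobin genes on chromosome 7 (31263736 to 34100837), 33 genes on chromosome 8 with the 28 alpha-defensin genes and the like-named Defa-ps8 (20901960 to 21795185), and 28 genes on chromosome 4 (143267409 to 144377933), mostly of the PRAME-like family. Runs of 20 major urinary protein genes on chromosome 4 and of 20 prolactin genes on chromosome 13 were named alike.

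Long tracts held no peak at all. Stretches of 100 kb or more without a peak in any library contained 1232 closed genes (54.9%), in 300 stretches. The longest covered 3392 kb on chromosome 7 (19965465 to 23357626), where the closed genes Nlrp9b and others stood among 70 vomeronasal and other genes left out by name. Others covered 3158 kb on chromosome 2 (174943659 to 178101710), 2920 kb on chromosome 12 (21543940 to 24463733), 2901 kb on chromosome 7 (31209150 to 34109783, the secretoglobins) and 2889 kb on chromosome 7 (7299527 to 10188859). The share of closed genes was highest on chromosome 14, 213 of 787 (27.1%), and lowest on chromosome 11, 85 of 1433 (5.93%). The farthest gene from any peak was the predicted gene Gm2888 at 3078729 bp. Of the 10 farthest genes with a gene name, 6 were secretoglobins and 4 PRAME-like genes.

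The bodies of closed genes lie outside the 5 kb window of their own choice, but are not wholly free of it. A peak that crosses the 5 kb line can count for the other genes and never for a closed gene. Some bodies also run through the windows of other closed genes, which hold no peak by the choice. A body was taken as the part of a gene over 5 kb from its 5′ end, which 1530 closed genes had. Peaks of the 6 libraries were merged where they overlapped. Of these genes, 468 (30.6%) held a body peak in any library, against 79.1% of the other genes and 74.2% of all tested genes. A body peak in all 6 libraries was present in 370 (24.2%), against 65.9% of the others. The remaining 1062 (69.4%) had no body peak. The 2067 body regions of closed genes were called in all 6 libraries in 56.8% of cases, against 51.6% for the other genes, with median widths of 675 and 659 bp. Of the regions of closed genes 61 (2.95%) lay at a start of another gene, against 2.36% of the regions of the other genes.

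Per unit of length, body peaks were also fewer. Closed genes had 30.0, 31.5 and 33.0 body peaks per Mb in S7KO replicates 1, 2 and 4, and 29.6, 25.7 and 33.2 in WT. The other genes had 55.7, 61.3 and 63.9 in S7KO, and 55.0, 48.9 and 65.1 in WT. The ranges did not overlap. The mean was 30.5 ± 2.77 (SD, n = 6) in closed and 58.3 ± 6.19 in other genes, a difference of -27.8 peaks per Mb, lower in 6 of 6 libraries (exact two-sided sign-flip permutation test, p = 0.031, adjusted p = 0.031 over 2 tests). This is the smallest p that 6 libraries can give. The choice can set part of this gap, as described above, and how much was not tested. By peak middles, where no peak crosses the 5 kb line, the difference was -24.3 peaks per Mb.

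The gap was smaller far from the start, in classes that hold different genes. From 5 to 10 kb into the gene, closed genes had 33.1 ± 2.24 peaks per Mb and the other genes 89.4 ± 7.62 (SD, n = 6), so that the closed genes reached 37.1% of the others. Beyond 100 kb the values were 32.6 ± 3.43 and 43.7 ± 4.99, or 74.7%. Only the 94 closed genes over 100 kb long enter the last class, so distance and gene length cannot be told apart here. Closed genes were lower in 6 of 6 libraries in each of the 5 distance classes. The density of closed genes was between 28.3 and 33.6 in all classes, while that of the other genes fell with distance. By gene length the ratio was 27.4% for genes of 5 to 20 kb, 38.5% for 20 to 100 kb and 67.9% over 100 kb. Among genes over 100 kb, 94 were closed, and 77.7% to 81.9% of these held a body peak per library.

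**Figure D4:**
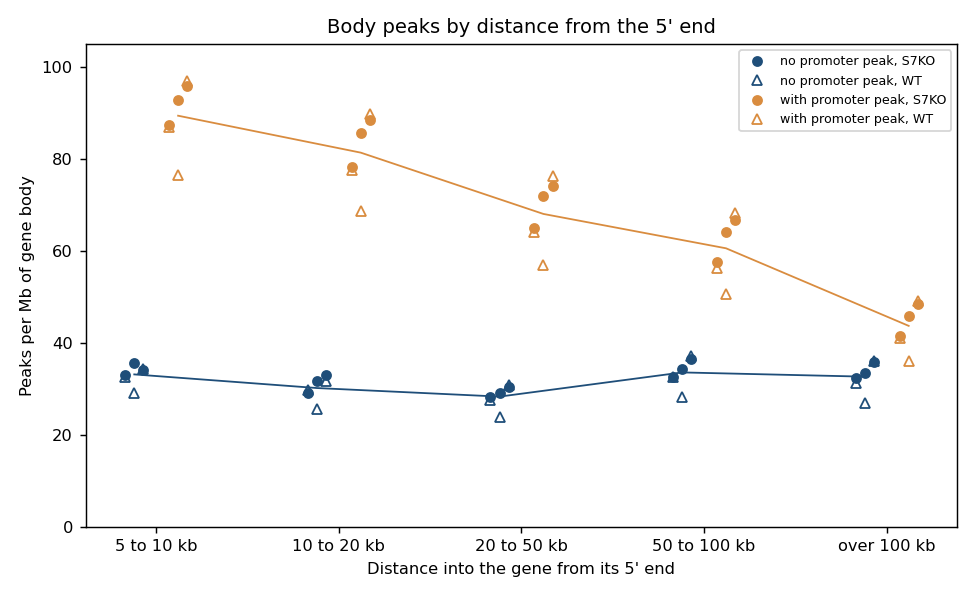
Peaks per Mb of gene body (y axis) by distance from the 5′ end (x axis), per library, for genes without (blue) and with (orange) a promoter peak; filled circles are S7KO, open triangles WT and lines join the means of 6 libraries. Closed genes stay near 30 per Mb, whereas other genes fall from 89.4 at 5 to 10 kb to 43.7 beyond 100 kb.

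The 3′ ends gave a like result, under the same limits. Among genes over 6 kb long, a peak lay within 1 kb of the 3′ end in 7.24% to 9.70% of the 1422 closed genes, lowest in WT replicate 2. The means were 8.93% ± 0.894 in closed and 27.6% ± 2.13 in other genes (SD, n = 6). The difference was -18.7 percentage points, lower in 6 of 6 libraries (exact two-sided sign-flip permutation test, p = 0.031, adjusted p = 0.031). Without the peak-free stretches of CpG-rich promoters the differences were -26.5 peaks per Mb and -18.3 percentage points, and without near-identical promoters -25.0 and -16.4.

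The closed genes with most body peaks were very long. Tenm3, a teneurin of neurons of 1297160 bp on chromosome 8, had 99 body regions, 58 of them called in all 6 libraries, although its 5′ end lay 18649 to 18925 bp from the nearest peak. The cadherin gene Cdh13 had 45 in all 6, the transcription factor gene Zfhx3 38, the scaffold gene Magi2 28, Hdac9, a histone deacetylase, and Nrg1, a growth factor of the EGF family, 23 each, and Btbd9 21. Palld and Tacc2, genes of the actin and microtubule cytoskeleton, had 18 each, and Phldb2 17. Tenm3, Zfhx3, Magi2, Hdac9, Palld, Tacc2 and Phldb2 had an inner annotated start with a peak in all 6 libraries.

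The strongest body peaks often marked such inner starts. Ranked by −log10 q within each list, where 0% is the strongest peak, the region 11729 bp into Iqgap1 stood in the top 0.204% to 0.411% of each list. The region 5073 bp into Adh5 ranked at 0.183% to 0.693%. Both lie at an annotated start of their own gene, as do the regions in Rps6ka2, Kifap3 (0.902% to 1.80%) and Nedd9 (0.916% to 1.14%). The region 22323 bp into Asah1, the acid ceramidase gene, lay at no RefSeq start of its own gene used here and ranked at 0.495% to 0.934%. Regions at a start of another gene were left out of this ranking beforehand. RefSeq promoters were not at hand for all genes, so the region can still lie at a start missing from them. These ranks describe the lists and are not a comparison of accessibility between libraries.

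Tissue markers with closed promoters differed in their bodies. Of those with a body, 3 of 6 liver, 3 of 4 epidermis and 3 of 3 myeloid markers held a body peak in any library. None of the 9 placenta or 4 natural killer cell markers did. All closed genes with a body reached 30.6%, and the lists rest on few genes. Tg, the thyroglobulin gene of 179968 bp, had 16 body regions, 5 in all 6 libraries. Cps1 had 8, of which 3 were in all 6, and the B cell kinase gene Blk 4, all in all 6. Alb, Cpa3, Marco and Muc5ac had 1 body region each, none of them in all libraries. Skint6 and Skint5, with lengths of 482358 and 521613 bp among the longest closed genes, had none.

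Between genotypes, the number of closed genes differed little. Without the requirement on the other libraries, 2640, 2537 and 2508 genes had no promoter peak in S7KO replicates 1, 2 and 4, and 2659, 2836 and 2486 in WT. The S7KO values lay within the range of WT. The S7KO mean was 2562 ± 69.4 and the WT mean 2660 ± 175 (SD, n = 3), a difference of -98.7 (exact two-sided permutation test, p = 0.6, adjusted p = 0.6 over 4 tests). Such a test cannot give a p below 0.1 with 3 against 3 libraries, so no difference could pass the threshold of 0.05. WT replicate 2 had the fewest peaks and the most closed genes, and without it the difference was -10.8. Without WT replicate 4 it was -185.8, and with equal numbers of peaks in all libraries -11.3.

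The bodies of the closed genes did not differ beyond the spread either. Body peaks occurred in 415, 420 and 430 closed genes in S7KO and in 416, 381 and 423 in WT, a difference of 15 between means of 422 ± 7.64 and 407 ± 22.5 (exact permutation test, p = 0.5, adjusted p = 0.6). Their density differed by 2.01 peaks per Mb, from 31.5 ± 1.51 in S7KO to 29.5 ± 3.72 in WT, with the same p. A 3′ end peak was present in 128, 130 and 137 closed genes in S7KO and in 126, 103 and 138 in WT, a difference of 9.33 (exact permutation test, p = 0.5, adjusted p = 0.6). In each of these WT replicate 2 was the lowest library. Without it the differences were 2 genes, 0.117 peaks per Mb and -0.5 genes, and without WT replicate 4 they were 25.3 genes, 3.89 peaks per Mb and 18.3 genes. The density difference was 1.28 without S7KO replicate 4. With equal numbers of peaks the differences were 5.33 genes, 0.204 peaks per Mb and 4.67 genes.

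**Figure D5:**
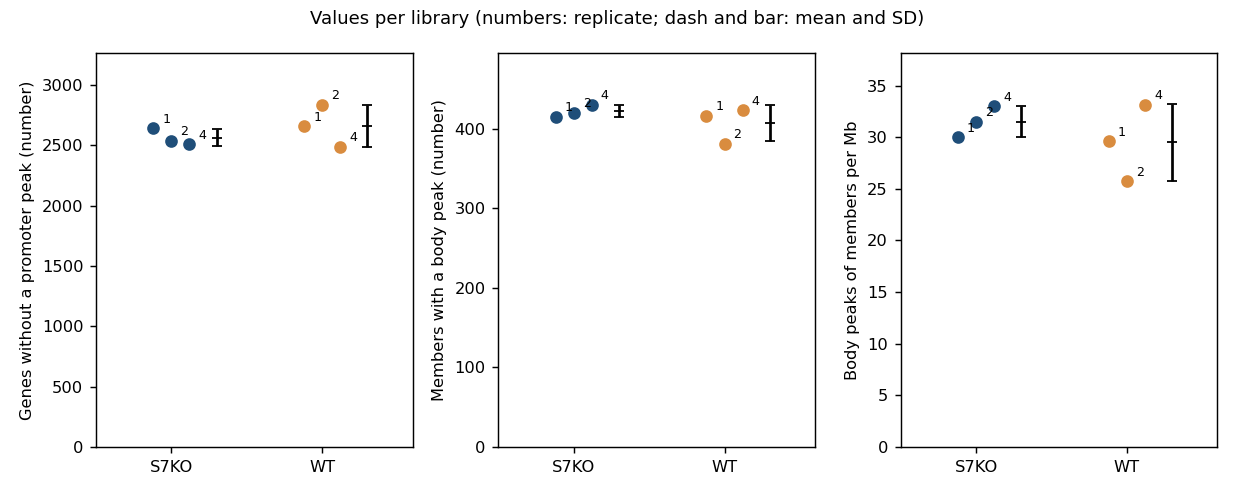
Genes without a promoter peak in each library, closed genes with a body peak, and body peaks of closed genes per Mb (y axes), for the 3 S7KO and 3 WT libraries, with replicate numbers, means and SDs. The groups overlap in each panel, and WT replicate 2 is at an extreme, with 2836 genes, 381 genes and 25.7 peaks per Mb.

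Single body regions present in 1 genotype only were rare. Of the 2067 body regions of closed genes, 6 (0.290%) were called in 3 S7KO and 0 WT libraries, against 0.443% of all 66876 body regions. None was called in 3 WT and 0 S7KO libraries, against 0.0927% of all. By the rank of their weakest peak the 6 lay in Cdh18, Aadacl4fm1, Palld, Kcnk2, Tg and Iqgap1, on 6 chromosomes. All were weak. Their worst ranks in the S7KO lists were 91.6% for the region in Cdh18 (chromosome 15, 23168164 to 23168392), 96.0% in Aadacl4fm1, 96.0% in Palld, 96.1% in Kcnk2, 97.1% in Tg and 98.3% in Iqgap1, where 100% is the weakest peak. Single regions were not tested, since 3 against 3 libraries cannot give a p under 0.1.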

How the data were processed

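Peak lists of 6 ATAC-seq libraries were used, 3 S7KO and 3 WT. Per the study and the submitters' processing notes, the authors trimmed reads with Trim Galore 0.6.6, mapped them with Bowtie2 on mm10 and retained those mapping to 1 place (SAMtools 1.19.2). Per the study, duplicate and mitochondrial reads were also removed, Tn5 insertions were corrected and fragments were filtered by size. By its methods this filter left out the shortest and the longest fragments, whereas its results call the profiles used for peaks nucleosome-free. Broad peaks were called per library with MACS2 2.2.5. How the size filter bears on missing peaks was not tested. The deposited lists give each peak a display score, a fold enrichment, a −log10 p and a −log10 q, all from the authors' peak caller. The position and −log10 q were used here, and the largest q was 0.0983. Read depth is not given in the lists, so no counting error could be attached to a peak.

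Genes were the protein-coding genes of RefSeq on GRCm38.p6, the assembly called mm10, with the strand from RefSeq promoters or, for 3574 tested genes, from the GENCODE gene of the same symbol and chromosome. Left out were 105 genes with coordinates in the first 3 Mb of a chromosome, which is a gap in the assembly, and 335 genes without a strand. GENCODE strands were not used for 6 genes of a chromosome 14 block that is inverted between the builds. A gene was closed if no peak of any library lay within 5 kb of its 5′ end. Near-identical promoters were found with BLAST+ 2.17.0+. Other steps used Python 3.11.15 with numpy 2.4.6, pandas 2.3.3, scipy 1.17.1 and matplotlib 3.10.9, and the calculations were tested on simulated data.

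Values per library were compared between genotypes by exact two-sided permutation over the 20 assignments, and between closed and other genes by exact sign flips over the 6 libraries. P-values were adjusted by the Benjamini-Hochberg method within each family of tests. Alternatives were other distances, a −log10 q of at least 3, peak middles, equal numbers of peaks, leaving out libraries or genes, other strands and starts, and the replicate number as a block. The members and lists were chosen with earlier results of these data known, and the families marked as such, the GENCODE strand, the use of all RefSeq starts and the peak-free stretches were chosen after seeing the values. Named were the families with 5 or more measured genes with examples among the farthest closed genes, the closed genes of each tissue list, the 10 genes with most body regions in all libraries, the strongest body regions, the longest runs and peak-free stretches, the genes nearest the 5 kb threshold and the genotype-specific body regions. Some examples were named after their values were seen, and some results are not reported here.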

Additional observations from a re-analysis of the deposited data

How the results depend on the processing

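The 4 genotype differences could not pass the threshold under any alternative, since exact permutation cannot give a p below 0.1 here. Their failure to pass is therefore no sign of a stable result. The p of 0.1 was reached for closed genes with a 3′ end peak without WT replicate 4, at a difference of 18.3 genes. Without WT replicate 2 that difference was -0.5 genes. The 2 differences between closed and other genes kept their sign under every alternative and passed the threshold except when 1 library was left out. Their sizes depended on the processing. The body difference was -17.0 peaks per Mb with a −log10 q of at least 3, -36.6 at 10 kb and -43.4 among genes of 20 to 100 kb. That at 3′ ends was -11.7 percentage points by peak middles and -20.2 at 10 kb. The number of closed genes was 2245, and 2812 at 3 kb, 1698 at 10 kb, 2533 with a −log10 q of at least 3, 2329 by peak middles, 2484 with equal numbers of peaks, 1602 without Gm and Rik names and 1695 without near-identical promoters. With choices made after seeing the data it was 1971 with GENCODE strands only, 2125 with all RefSeq starts and 2115 without the CpG-rich peak-free stretches. Leaving out 1 library gave 2251 to 2299.

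Leaving out 1 library, the difference between closed and other genes ranged from -28.8 to -26.5 body peaks per Mb and from -19.2 to -18.1 percentage points at 3′ ends, with a p of 0.0625, the smallest that 5 libraries can give. The genotype difference in closed genes with a 3′ end peak ranged from -0.5 to 18.3 and changed sign only without WT replicate 2. With the replicate number as a block (replicate block) the genotype differences were -98.7 genes, 15 genes, 2.01 peaks per Mb and 9.33 genes, at p = 0.5 to 0.75 (exact sign flips, which cannot go below 0.25). Libraries of the same number (1, 2 and 4) correlated at 0.0965, 0.0175 and 0.0775 in their deviations. Libraries of unlike number correlated lower. Their values were -0.0820 to -0.0173 for number 1, -0.0173 to 0.00114 for number 2 and -0.0759 to -0.000162 for number 4. Whether the numbers mark pairs or batches was not tested, and the main tests did not use them as pairs.

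Of 766 family counts under alternatives, 726 were within 1.5 times the main count. Without near-identical promoters, genes lacking a promoter sequence kept, 12 Mup, 22 secretoglobin, 14 alpha-defensin, 28 PRAME-like and 2 SPEER genes were closed. The depth of the libraries is unknown, and a missing peak can be a peak below the caller's threshold.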
